A study of Mus musculus with 60 samples.

Results

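Broad H3K9ac domains are stretches of the genome where acetylation of a lysine in the tail of histone H3 formed an unusually wide peak. Every H3K9ac peak of 2000 bp or more was taken from each of the 4 deposited H3K9ac lists, and overlapping broad peaks of the 4 lists were merged. This gave 3769 domains, out of 112171 H3K9ac regions in all 4 lists together. The members were therefore chosen by measured values, the peak widths, and every statement on widths or on the number of lists with a broad peak is a description with no test. The domains covered 10.6 Mb, with a median merged width of 2475 bp, quartiles of 2184 and 3028 bp and a maximum of 14115 bp.

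The lists come from lumbar dorsal root ganglia (L4 to L6) of C57BL/6 mice aged 6 to 8 weeks, taken 24 hours after surgery. The surgeries were axotomy of the sciatic nerve (SNA) with its sham operation (Sham), and axotomy of the spinal dorsal columns (DCA) with laminectomy alone (Lam). For each surgery the authors deposited 1 list per assay, made from 2 pooled ChIP samples of 10 mice each for H3K9ac, H3K27ac and H3K27me3, and from 3 pooled samples of 1 mouse each for ATAC-seq, which maps DNA that a transposase can reach. With 1 pooled list per condition there is no replicate error, so no p-value is given and the 95% Wilson intervals below cover counting error only.

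H3K9ac is placed by acetyltransferases such as Kat2a and Kat2b around the starts of active genes and at enhancers, and is removed by histone deacetylases. Wide runs of active histone marks have been described at genes that define a cell type and at genes that are kept ready for fast transcription. The ganglion holds sensory neurons wrapped by satellite glia, with Schwann cells around the axons and with vessels and macrophages between them. In such a bulk tissue a mark carried by more cells and a stronger mark in each cell cannot be told apart.

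The promoters of 5 genes with a domain are shown first because they show how the domains sat relative to gene starts. Each run is the 250 bases before an annotated start in RefSeq (build GRCm38.p6, the assembly of mm10), written 5′ to 3′ on the strand of the gene, with capitals marking matches on either strand to the motifs searched. These were the TATA box TATAAA, the GC box GGGCGG, the NF-Y site CCAAT, the cyclic AMP response element TGACGTCA, the AP-1 site TGANTCA and the CArG box of serum response factor. The Klf6 run (chr13:5861239-5861488, plus strand) lay wholly outside its domain, which began 95 bp downstream of the start. The Jun run (chr4:95052223-95052472, minus strand) also lay outside, with the domain beginning 25 bp downstream of the start. Of the Zfp36 run (chr7:28379229-28379478, minus strand) 83 bases were inside the domain. The Fos run (chr12:85473640-85473889, plus strand) lay wholly inside a domain that reached 2524 bp upstream of the start and 1292 bp downstream. The run before the first Pmp22 start (chr11:63128732-63128981, plus strand) was inside as well, in a domain reaching 704 bp upstream and 7523 bp downstream.
Klf6: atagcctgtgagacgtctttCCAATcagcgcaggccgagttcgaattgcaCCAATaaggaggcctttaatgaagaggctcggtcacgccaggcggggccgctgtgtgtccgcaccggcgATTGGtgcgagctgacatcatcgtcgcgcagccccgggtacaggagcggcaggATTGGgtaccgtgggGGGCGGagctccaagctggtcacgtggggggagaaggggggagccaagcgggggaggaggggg
Jun: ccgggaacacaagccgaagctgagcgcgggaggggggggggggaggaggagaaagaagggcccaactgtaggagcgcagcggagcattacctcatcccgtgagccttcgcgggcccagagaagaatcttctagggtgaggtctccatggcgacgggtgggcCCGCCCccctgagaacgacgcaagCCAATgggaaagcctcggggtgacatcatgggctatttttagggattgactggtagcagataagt
Zfp36: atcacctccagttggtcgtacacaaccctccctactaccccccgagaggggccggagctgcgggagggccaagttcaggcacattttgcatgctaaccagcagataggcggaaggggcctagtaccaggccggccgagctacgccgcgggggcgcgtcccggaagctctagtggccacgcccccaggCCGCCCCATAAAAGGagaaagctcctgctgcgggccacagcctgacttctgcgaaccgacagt
Fos: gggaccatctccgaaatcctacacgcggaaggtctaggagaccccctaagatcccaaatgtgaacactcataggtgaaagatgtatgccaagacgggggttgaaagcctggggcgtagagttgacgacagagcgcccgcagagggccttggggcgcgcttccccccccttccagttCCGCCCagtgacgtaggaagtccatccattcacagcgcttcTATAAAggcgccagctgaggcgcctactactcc
Pmp22: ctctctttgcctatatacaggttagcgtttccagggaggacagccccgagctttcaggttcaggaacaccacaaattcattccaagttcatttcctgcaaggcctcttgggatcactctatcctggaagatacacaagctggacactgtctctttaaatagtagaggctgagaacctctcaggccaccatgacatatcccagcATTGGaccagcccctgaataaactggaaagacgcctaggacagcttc

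The Klf6 run held CCAAT matches beginning at -230, -200, -131 and -78 and a GGGCGG match at -63, counted back from the start. The Fos run held GGGCGG at -74 and TATAAA at -33, the Jun run GGGCGG at -89 and CCAAT at -65, and the Pmp22 run CCAAT at -47. In the Zfp36 run a GGGCGG match at -63 overlapped a CArG box at -58. These are letter matches and not evidence of a bound factor.

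Over all promoter windows of the table, 300 bases around a start, 2191 windows of 1745 genes lay within 1 kb of a domain. The median ratio of observed to expected CpG was 0.779 in these windows, 0.748 in 11066 windows within 1 kb of a narrower H3K9ac region only and 0.202 in 8005 windows near no H3K9ac region. Median GC content was 64.7%, 60.7% and 47.3% in the same order. TATAAA was found in 5.39%, 6.64% and 22.8% of the windows, against 12.6% of all 21262 windows. GGGCGG was found in 68.1%, 63.7% and 16.0%, against 46.2% of all windows. CCAAT was less frequent near domains, at 28.3%, than near narrower regions, at 38.8%, or near none, at 40.0%, with 38.2% over all windows. The CArG box was found in 1.55%, 1.17% and 2.01% of the windows and in 1.52% of all. TGACGTCA was found in 2.83%, 3.14% and 0.824%, against 2.23% of all, and TGANTCA in 4.43%, 4.72% and 10.8%, against 6.99% of all. Domain promoters were thus CpG-rich like those of narrower acetylated regions, and the windows of immediate early genes near a domain had a median ratio of 0.827 over 15 windows. Those of the glial genes had a median of 0.622 over 10 windows of 6 genes. The first Pmp22 start had 0.158, while the other Pmp22 starts in the same domain had 0.667, 0.606 and 0.766.

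Some domains covered microRNA genes, which encode short RNAs that pair with messenger RNAs through a seed, bases 2 to 8. Of 1005 miRNA hairpins in the RefSeq table, 43 (4.28%) overlapped a domain and 152 (15.1%) overlapped a narrower H3K9ac region. Per Mb of acetylated DNA these were 4.05 hairpins in domains and 2.13 in narrower regions. Mature miRNAs of the domains described next are shown with the seed in capitals. The let-7 members share the seed GAGGUAG, and the other miRNAs shown each have a seed of their own.
mmu-let-7b-5p: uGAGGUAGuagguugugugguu
mmu-let-7c-5p: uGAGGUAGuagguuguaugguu
mmu-let-7i-5p: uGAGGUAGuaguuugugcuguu
mmu-miR-338-3p: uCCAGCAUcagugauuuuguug
mmu-miR-27b-3p: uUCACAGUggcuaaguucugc
mmu-miR-24-3p: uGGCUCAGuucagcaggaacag
mmu-miR-125b-5p: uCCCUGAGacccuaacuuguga
mmu-miR-9-5p: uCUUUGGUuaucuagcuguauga

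The let-7b and let-7c-2 hairpins lay in 1 domain of 3423 bp (chr15:85704366-85707788), whose widest H3K9ac peak was 1502 bp in Sham and 3423 bp in SNA, 1196 bp in Lam and 2775 bp in DCA. An ATAC peak overlapped this domain only in the DCA list, while H3K27ac peaks numbered 1, 2, 6 and 1 in the same order. The let-7i hairpin lay in a domain of 2038 bp that was broad in DCA alone. The miR-338 hairpin, which lies in the neuronal kinase gene Aatk, was in a domain of 5952 bp whose widest peak was 2758, 5540, 1166 and 3028 bp in Sham, SNA, Lam and DCA. The cluster of miR-23b, miR-27b and miR-24-1 was in a domain of 2571 bp, broad in Sham (2408 bp) and SNA (2075 bp) and narrower in Lam (636 bp) and DCA (947 bp). The miR-125b-1 domain of 2960 bp was broad in SNA (2805 bp) and DCA (2054 bp), measured 234 bp in Sham and 650 bp in Lam, and had no ATAC peak in any list. The miR-9-2 domain of 2018 bp was broad in SNA alone, and its peaks measured 1075 bp in Sham, 309 bp in Lam and 1282 bp in DCA. The SNA peak was wider than the Sham peak at each of these domains except that of the miR-23b cluster. Over all domains the median widest peak was also wider in SNA (1459 bp) than in Sham (975 bp), so this was not particular to miRNA domains.

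Broad peaks made up 0.781% of the Sham list (393 of 50332 peaks, interval 0.708% to 0.862%), 1.77% of the SNA list (1320 of 74652, 1.68% to 1.87%), 0.322% of the Lam list (163 of 50667, 0.276% to 0.375%) and 3.67% of the DCA list (3289 of 89647, 3.55% to 3.79%). Both axotomy lists thus had more broad peaks than their control list, and DCA had the most. With only peaks of a −log10 q of at least 5, the broad share was 5.62% in Sham and 11.2% in SNA, 1.62% in Lam and 7.48% in DCA, so SNA and not DCA had the highest share, while DCA still had the most broad peaks (3196 against 896). The widest peak was 5301 bp in Sham and 8156 bp in SNA, 4413 bp in Lam and 10411 bp in DCA. The authors' fold enrichment over background was higher for broad than for narrower peaks of the same list, with medians of 4.97 against 3.38 in Sham and 5.35 against 3.42 in SNA, 3.99 against 3.12 in Lam and 5.06 against 3.27 in DCA. Fold and width come from the same H3K9ac signal, so this too is a description. The folds and p-values imply that the authors' caller had multiplied the ChIP pile-up by 0.315 in Sham and 0.400 in SNA, 0.610 in Lam and 0.918 in DCA. After this scaling the background was 1.68, 2.08, 3.04 and 5.20 reads per position in that order, and before it 5.33, 5.20, 4.98 and 5.67. DCA was highest on both scales, whereas Lam, which had the fewest broad peaks, was above SNA and Sham after scaling and lowest before it. The part of depth and scaling in these numbers was not tested.

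**Figure D1:**
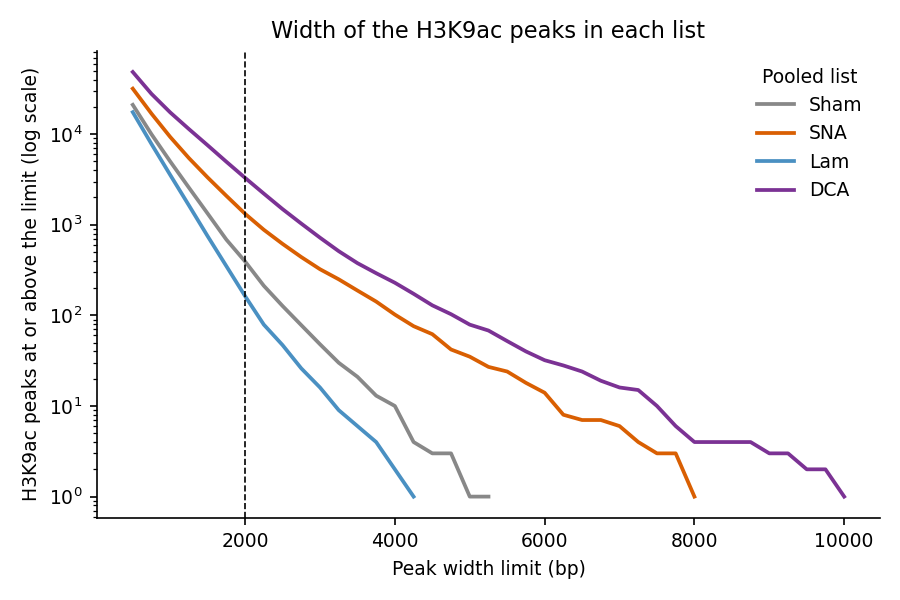
Number of H3K9ac peaks (log scale) at or above each width limit in bp, for the pooled list of each surgery, with the 2000 bp limit dashed. At that limit the lists hold 393 (Sham), 1320 (SNA), 163 (Lam) and 3289 (DCA) peaks, and the order DCA, SNA, Sham, Lam holds along the plotted widths up to 4250 bp.

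In Sham the peaks just outside the limit measured 1997 bp at Dusp4, 1998 bp at Carns1 and 1999 bp at Nfix, with folds of 5.44, 4.54 and 4.73. The peaks just inside measured 2001 bp at Irf1, 2001 bp at Bag5 and 2002 bp at Myl12b, with folds of 3.48, 3.83 and 5.69. The limit therefore cut through a continuous range of widths.

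Most domains were broad in few lists. Of the 3769, 2822 (74.9%) were broad in 1 list, 656 in 2, 239 in 3 and 52 (1.38%) in all 4. DCA alone accounted for 2328 (61.8%), SNA alone for 438 (11.6%), Sham alone for 44 and Lam alone for 12. The axotomy lists SNA and DCA shared 522 domains (13.8%) that were broad in neither control list. A domain that was not broad in a list was seldom without acetylation there: 96.2% of the domains had an H3K9ac peak of any width in Sham and 97.6% in SNA, 97.7% in Lam and 100% in DCA. Only the DCA list had a peak in every domain. The widest peak in a domain had a median of 975 bp in Sham and 1459 bp in SNA, 859 bp in Lam and 2335 bp in DCA, and the domain was split into several peaks in 66.5%, 59.1%, 71.7% and 20.8% of cases.

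Of the 10 widest domains 6 lay inside genes away from starts, 3 at starts and 1 between genes. The first was in Anks1, an ankyrin-repeat adaptor gene (chr17:28001117-28015231, 14115 bp), where the widest single peak was 3027 bp in Sham and 7994 bp in SNA, 3271 bp in Lam and 9768 bp in DCA. Next came Vgll4, a repressor of the Hippo pathway effectors (12473 bp, with peaks of 2909, 3879, 4413 and 5523 bp in the same order), and Ahdc1 (12167 bp, with 2479, 3881, 1199 and 7598 bp). In all 3 the DCA peak was the widest. A domain of 10653 bp between genes, 78817 bp from Zfp36l2, was broad in Sham (2984 bp), SNA (3050 bp) and DCA (5789 bp) and measured 1843 bp in Lam. The domain at the starts of Zmynd8, which encodes a reader of acetylated histones, was a single peak of 10411 bp in DCA and at most 3378 bp elsewhere. The domain at Plxnd1, a semaphorin receptor gene, measured 3585, 5549, 1790 and 9397 bp in Sham, SNA, Lam and DCA. Sap30bp (10588 bp), Niban2 (10685 bp), Adgrg1 (9888 bp) and Nr2f2 (9438 bp) completed the 10 widest. Of these 10, 3 were broad in all 4 lists, and in each of them the DCA peak was the widest.

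Among the 52 domains broad in every list, the narrowest of the 4 peaks was widest at Bcl2l1, which encodes an inhibitor of apoptosis (3944 bp in Sham and 4234 in SNA, 3770 in Lam and 3224 in DCA). Here the DCA peak was the narrowest. In Aopep the peaks measured 3552, 3962, 3132 and 4144 bp, and at Mbnl2, a splicing regulator, 2901, 3445, 3098 and 3686 bp. A domain 5459 bp from Frmd8 (chr19:5839659-5845514) had peaks of 4858, 3401, 2667 and 5856 bp. The Pmp22 domain, at the gene of a myelin protein, had peaks of 4245, 2751, 2651 and 6008 bp. No list was the widest at all 5 of these loci. Of the 20 genes with a broad peak at a start in all 4 lists, others were the stress-response phosphatase subunit gene Ppp1r15b, the antioxidant gene Gpx1, the transcription factor gene Klf9 and the kinase gene Abl1.

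**Figure D2:**
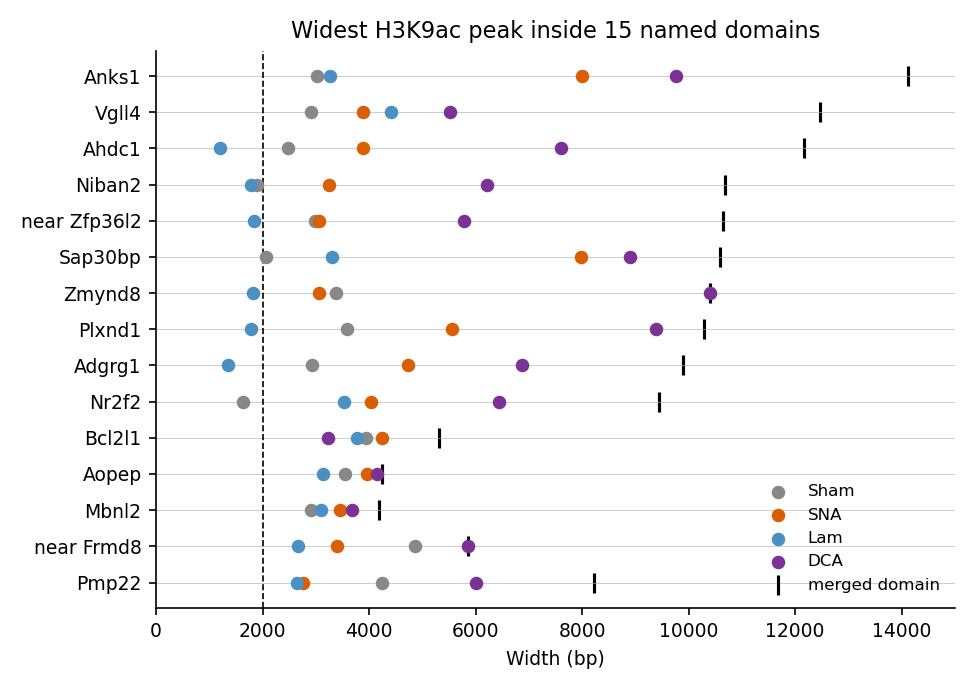
Width in bp of the widest H3K9ac peak in each pooled list (coloured points) and of the merged domain (black bars) for the 10 widest domains and 5 broad in all 4 lists, with the 2000 bp limit dashed. DCA points lie farthest right for all 10 widest domains, whereas at Bcl2l1 the 4 lists lie between 3224 and 4234 bp.

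Some domains were broad in 1 list only. Among the widest in SNA alone were a domain 31481 bp from Tekt3 (4533 bp against 1268 bp in Sham) and a domain in Galnt16 (4345 against 1938 bp). Those in DCA alone lay 6436 bp from Zswim4 (7318 bp against 1431 bp in Lam), 16337 bp from Kmt2e (6900 against 1338 bp) and at the start of Ppp1r9b, which encodes the dendritic spine protein spinophilin (6552 against 1906 bp). In Sham alone they lay in BC034090 (3201 bp), in Timp2 (2959 bp) and in Clec16a (2934 bp), and in Lam alone at the histone gene H1f2 (2488 bp), at Arhgap42 (2331 bp) and in Itpk1 (2284 bp). At each of these domains the 4 lists all held H3K9ac peaks.

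A start of a protein-coding gene lay within 1 kb of 2000 domains (53.1%, interval 51.5% to 54.7%). A further 1349 (35.8%) were inside genes away from starts and 420 (11.1%) were between genes. Among 108457 narrower H3K9ac regions the share at starts was 15.3%, and among the 20020 of these that were 1000 bp or wider it was 37.7%. A wide region meets more starts, so the share was also taken for a 500 bp window at the centre, where it was 45.4% for domains, 15.1% for all narrower regions and 36.0% for those of 1000 bp or more. For genes with no strand in the table either gene end was counted, and with stranded starts alone the shares were 43.0%, 12.0% and 30.9%. Exons, introns and untranslated regions were not assigned.

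Place differed between domains of different lists. Of the domains broad in DCA alone 61.4% were at starts (interval 59.4% to 63.3%), against 32.2% of those broad in SNA alone (28.0% to 36.7%). Of the SNA-alone domains 50.9% were inside genes away from starts and 16.9% were between genes, against 29.0% and 9.62% for DCA alone. Domains broad in 2, 3 and 4 lists were at starts in 43.0%, 41.8% and 46.2% of cases. The intervals of DCA alone and SNA alone did not overlap, though they cover counting error only and each list is 1 pool.

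**Figure D3:**
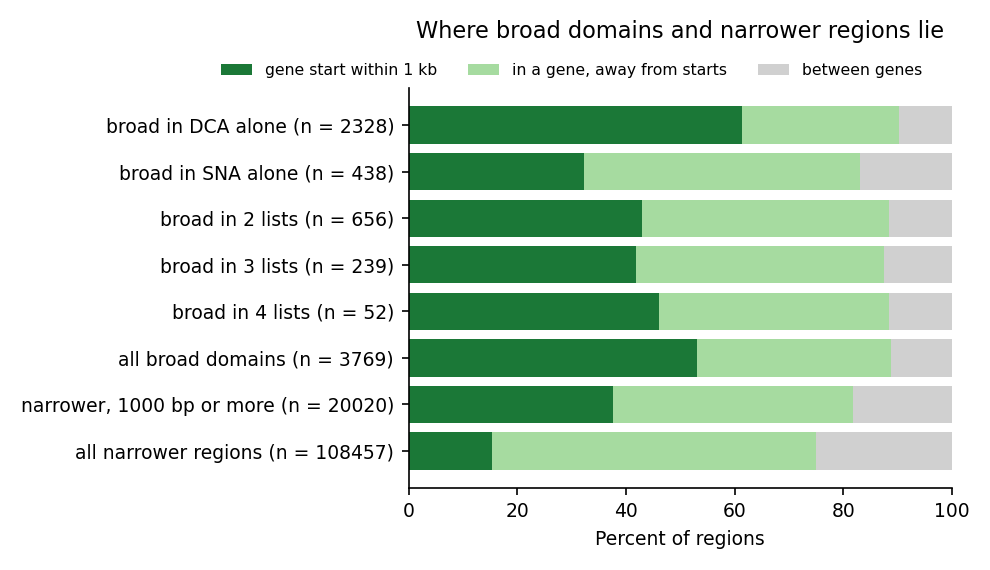
Percent of regions with a gene start within 1 kb, inside a gene away from starts, or between genes, for sets of broad domains and for narrower H3K9ac regions (n in brackets). The dark bar reaches 61.4% for domains broad in DCA alone and 32.2% for those broad in SNA alone.

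At starts the domains extended into the gene. In 1283 domains holding the start of a single stranded gene, the median reach was 846 bp upstream and 1655 bp downstream of the start, and 81.6% (79.4% to 83.6%) reached farther downstream. Narrower regions had the same asymmetry, with 342 and 842 bp and 80.6% longer downstream, and those of 1000 bp or more had 82.2%. The Klf6 and Jun domains shown above began downstream of the start and so did not hold it.

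Genes with several domains were long. Prdm16, a transcription factor gene of 321239 bp, held 20 domains covering 66252 bp, of which 17 were broad in DCA, 12 in SNA, 5 in Sham and 2 in Lam, and 19 lay away from its starts. H3K27ac peaks overlapped 17 of these 20 in Sham and all 20 in SNA and in Lam, and 19 in DCA. ATAC peaks overlapped 11, 12, 14 and 14 of them in Sham, SNA, Lam and DCA. Fam53b held 14 domains, Aopep 13, Itpk1 12 and the septin gene Septin9 11. The 8 domains of Nfix, a transcription factor gene, were each broad in a single list. In all, 2709 genes had a domain in their body, 538 had several and 209 had 3 or more. Domains also lay near each other, since 802 (21.4%) were within 10 kb of the previous domain.

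Of 21883 protein-coding genes, 2195 carried a domain within 1 kb of a start, or 10.0% of all genes and 16.2% of the 13539 genes with any H3K9ac region there. A broad peak lay at a start of 159 genes in Sham and 503 in SNA, 95 in Lam and 2002 in DCA. Of the carrying genes, 1771 did so in 1 list, 304 in 2, 100 in 3 and 20 in 4. Carrying genes had a median length of 25598 bp and acetylated genes without a domain 23120 bp. In 179 carrying genes domains covered at least 50% of the gene, and in 45 at least 90%. The gene lists below were chosen with earlier results of these data known, and no test was run on them. Against the background of 10.0%, the lists ranged from 0 of 20 genes to 48.5%.

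**Figure D4:**
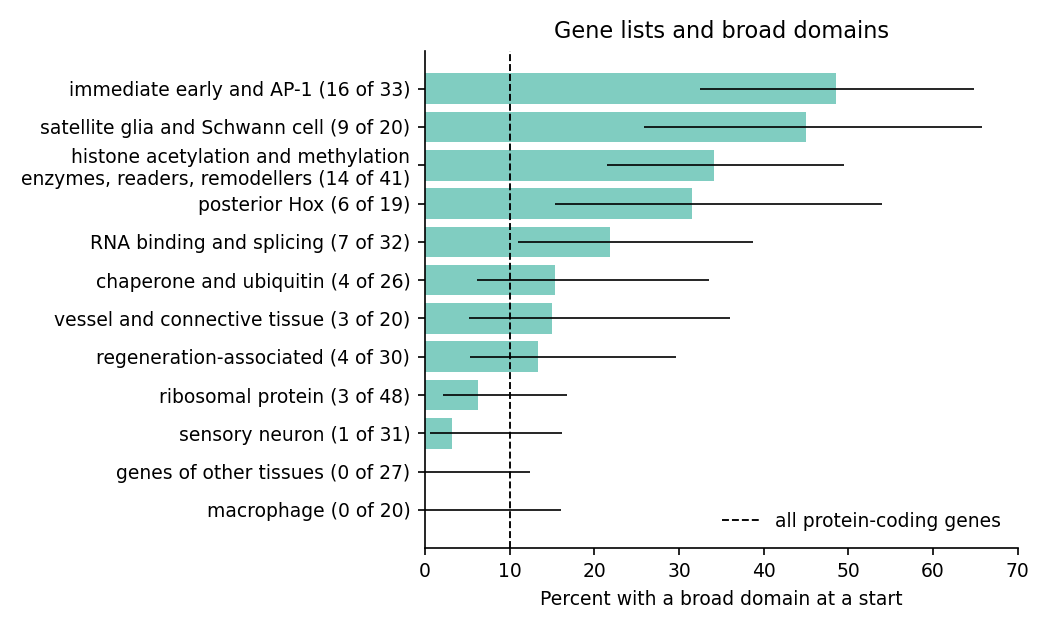
Percent of the genes of each list with a broad H3K9ac domain within 1 kb of a start, with 95% Wilson intervals (counting error only) and with the share over all protein-coding genes (10.0%) dashed. Immediate early and glial genes lie highest, at 48.5% and 45.0%, and no listed macrophage gene has a domain.

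Immediate early genes, which are switched on within minutes of a stimulus, and other AP-1 genes carried a domain in 16 of 33 cases (48.5%, interval 32.5% to 64.8%), against 10.0% of all genes. All 33 had some H3K9ac region at a start. They carried it in 4 cases in Sham and 8 in SNA, 4 in Lam and 13 in DCA. Klf6, a transcription factor gene linked to axon growth, had a single peak of 2219 bp in Sham and 2312 in SNA, 2038 in Lam and 2344 in DCA. Klf6 was thus broad in all 4 lists with similar widths, while its fold was 4.82, 10.9, 5.21 and 5.86. Jun, an AP-1 subunit gene, had widest peaks of 1321, 2337, 2027 and 2426 bp, so that only Sham was under the limit. Dusp6, which encodes a phosphatase of ERK kinases, had 2208, 3426, 1912 and 2331 bp. Zfp36, whose product destabilises messenger RNAs, had 1692, 2232, 2237 and 2293 bp. Each of these 4 genes had its narrowest peak in a control list, Sham for Jun and Zfp36 and Lam for Klf6 and Dusp6. The control lists were also the narrower ones over all domains. There the median widest peak was 975 bp in Sham and 1459 bp in SNA, 859 bp in Lam and 2335 bp in DCA. This follows in part from the choice by width, since 2328 domains were members through DCA alone and 438 through SNA alone.

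Fos, the partner of Jun in AP-1, was broad in Lam (3092 bp) and DCA (3212 bp) and not in Sham (1561 bp) or SNA (1626 bp). Dusp1 was broad in Sham (2443 bp) and SNA (2165 bp) and measured 942 bp in Lam and 1326 bp in DCA. Gadd45g, a stress-response gene, was also broad in Sham (2064 bp) and SNA (2223 bp), with 427 bp in Lam and 1130 bp in DCA. At these 3 genes the sciatic pair of lists and the spinal pair differed more than injury and control did. Ier2 was broad in SNA alone (3005 bp, with 1599, 736 and 1745 bp in Sham, Lam and DCA). Socs3, an inhibitor of cytokine signalling, was broad in DCA alone (2962 bp, with 924, 1892 and 911 bp in Sham, SNA and Lam). These genes are short, and domains covered at least 50% of 10 of the 16 carrying genes and at least 90% of 3, among them Zfp36 (91.4%).

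Genes of satellite glia and Schwann cells carried a domain in 9 of 20 cases (45.0%, 25.8% to 65.8%), and 19 of the 20 were acetylated at a start. Among these were Pmp22 and Cnp, which encode myelin proteins, and Glul, the glutamine synthetase of satellite glia. Domains were also at the gap junction gene Gja1, at the transcription factor genes Zeb2 and Foxd3, and at an end of Sox10 and Erbb3, whose strand the table does not give. Pmp22 was broad in all 4 lists, as given above. Cnp measured 3486 bp in Sham and 4684 in SNA, 1884 in Lam and 4114 in DCA, so it was under the limit in Lam only. Gja1 measured 976, 2076, 497 and 2228 bp and was broad in both axotomy lists and in neither control list. At Glul the widths were 1698, 2205, 1818 and 2073 bp, closer to each other. The domain of Sox10, the master regulator of these cells, had widest peaks of 1758, 4243, 717 and 5742 bp. Zeb2 differed from these, with 1324, 1734, 3502 and 2771 bp, the widest in Lam.

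Markers of the sensory neurons carried a domain in 1 of 31 cases (3.23%, 0.572% to 16.2%), and only 9 of the 31 had an H3K9ac region at a start in any list. The gene was Ntrk2, the receptor of BDNF, with a peak of 3057 bp in DCA and 834, 848 and 345 bp in Sham, SNA and Lam. Defining genes of the neurons in the labelled tissue were thus largely without H3K9ac peaks at their starts, against 61.9% of all genes with one. Of 20 macrophage genes none carried a domain (upper limit 16.1%) and 5 were acetylated. Of 27 genes of other tissues none carried a domain (upper limit 12.5%) and 8 were acetylated. Vessel and connective tissue genes carried one in 3 of 20 cases. These were Cldn5, a tight junction gene of endothelium (2503 bp in Sham and 1458 in SNA, 1201 in Lam and 1174 in DCA), Pdgfrb of pericytes and Klf2.

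Regeneration-associated genes, known to respond to peripheral axotomy, carried a domain in 4 of 30 cases (13.3%, 5.31% to 29.7%), close to the background of 10.0%. They were Jun, Klf6, Klf7 and Socs3, and 18 of the 30 were acetylated at a start. Jun, Klf6 and Socs3 also stand in the immediate early list. The Klf7 domain had peaks of 1560 bp in Sham and 2195 in SNA, 1809 in Lam and 3801 in DCA.

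Ribosomal protein genes, which are highly transcribed, carried a domain in 3 of 48 cases (6.25%, 2.15% to 16.8%), although all 48 were acetylated at a start. The domains were at Rpl9 and Rpl19 and at an end of Rpl3. Chaperone and ubiquitin genes carried one in 4 of 26 cases (15.4%), all in DCA and in no other list. RNA binding and splicing genes did so in 7 of 32 cases (21.9%), again in DCA only, among them Hnrnpu with peaks of 222, 555, 860 and 2480 bp in Sham, SNA, Lam and DCA. Over all protein-coding genes the shares with a broad peak at a start were 0.727% in Sham and 2.30% in SNA, 0.434% in Lam and 9.15% in DCA. At these shares 26 or 32 genes would hold few carriers outside DCA. The cause of the restriction to DCA was not tested.

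Genes of histone acetylation and methylation enzymes, listed with a few readers and remodellers such as Brd2 and Chd2, carried a domain in 14 of 41 cases (34.1%, 21.6% to 49.5%), of which 14 were broad in DCA, and 1 each in Sham, SNA and Lam. For 6 of the 14 the table gives no strand. Brd2, a reader of acetylated histones, had widths of 1394, 676, 1251 and 3770 bp in Sham, SNA, Lam and DCA. The deacetylase gene Hdac7 was broad in Sham (2679 bp), SNA (2032 bp) and DCA (2316 bp) and measured 739 bp in Lam. Kmt2e, broad in both spinal lists, had 1033, 1607, 2058 and 2922 bp. Hox genes listed as posterior carried a domain in 6 of 19 cases (31.6%, 15.4% to 54.0%), with 6 in DCA and 1 in SNA. Hoxa9 measured 1044, 2419, 1275 and 3526 bp, and Hoxb7 and Hoxb8 shared a domain of 3622 bp that was broad in DCA alone.

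Accessible DNA was found at most domains. An ATAC peak overlapped 83.6% of the domains in Sham (interval 82.4% to 84.7%) and 87.5% in SNA (86.4% to 88.5%), 86.2% in Lam (85.1% to 87.3%) and 86.1% in DCA (85.0% to 87.2%). Narrower H3K9ac regions had an ATAC peak in 32.7%, 37.0%, 34.2% and 35.2% of cases, and those of 1000 bp or more in 65.6%, 69.6%, 67.5% and 68.2%. In the 500 bp window at the centre of the domains the shares were 60.7%, 64.5%, 62.6% and 64.3%. In the same window they were 31.3%, 35.9%, 32.9% and 34.0% for all narrower regions and 56.2%, 60.9%, 57.9% and 59.7% for those of 1000 bp or more, the latter within 5 percentage points of the domains. ATAC peaks covered a minor part of the domain base pairs, 31.8%, 34.8%, 33.2% and 34.6% in the same order. For narrower regions this part was smaller, 24.7%, 28.4%, 25.7% and 27.3%. A domain held 1.16 ATAC peaks on average in Sham and 1.24 in SNA, 1.25 in Lam and 1.21 in DCA. Per kb this was 0.412, 0.442, 0.442 and 0.430 peaks, fewer than the 0.529, 0.602, 0.559 and 0.569 of narrower regions. A peak was counted in full at an overlap of 1 bp, which raises the number per kb of short regions.

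Domains at starts and domains inside genes differed in accessibility. At starts 95.8% had an ATAC peak in Sham and 96.9% in SNA, 96.5% in Lam and 96.3% in DCA. Inside genes the shares were 67.3%, 74.7%, 72.8% and 72.4%, and between genes 77.9%, 83.8%, 80.5% and 81.7%. The authors' median ATAC fold was 3.32, 3.53, 3.22 and 3.28 at starts and 2.09, 2.08, 2.00 and 2.04 inside genes. In all 4 lists an ATAC peak was present at 2748 domains (72.9%), and in none at 163 (4.32%). The widest of the 163 lay in Cuedc1 (chr11:88113430-88121069, 7640 bp), with H3K9ac peaks of 1343, 3449, 1579 and 7640 bp and with 4, 2, 2 and 5 H3K27ac peaks in Sham, SNA, Lam and DCA. A second domain in Cuedc1 (4564 bp), domains 108561 bp from Haao (4299 bp) and 228557 bp from Arrdc4 (4036 bp), and the domain at Vamp8 (4244 bp) were the next widest. All 5 had H3K27ac peaks in every list. By contrast the domains in Anks1, Vgll4, Ahdc1 and Sap30bp and near Zfp36l2 had ATAC peaks in all 4 lists with no gene start within 5 kb.

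H3K27ac, a mark of active promoters and enhancers, was present at nearly every domain. It overlapped 90.6% of the domains in Sham (89.6% to 91.4%) and 98.9% in SNA (98.5% to 99.2%), 98.4% in Lam (98.0% to 98.8%) and 92.4% in DCA (91.5% to 93.2%). Narrower regions had an H3K27ac peak in 21.8%, 43.0%, 39.4% and 23.5% of cases, and those of 1000 bp or more in 57.7%, 86.4%, 83.2% and 61.3%. At the centre windows of the domains the shares were 70.8%, 91.5%, 91.0% and 74.0%, against 20.2%, 42.5%, 38.6% and 21.8% for all narrower regions and 48.4%, 80.2%, 76.7% and 51.5% for those of 1000 bp or more. All 4 lists had H3K27ac at 3208 domains (85.1%), and 11 domains had none. The domains broad in all 4 H3K9ac lists had H3K27ac in 100% of cases in every list. H3K27ac was higher in SNA and Lam than in Sham and DCA, an order that differed from that of the H3K9ac domains. Its lists held 43803 peaks in Sham and 75824 in SNA, 67311 in Lam and 46489 in DCA. Their background before scaling was 2.91, 3.08, 3.08 and 2.11 reads per position in the same order. SNA and Lam were highest, as in the H3K27ac shares, while DCA was lowest with a share above that of Sham. After the scaling of the SNA list by 0.759 its value was 2.34, below that of Sham. The part of depth and scaling in these shares was not tested.

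**Figure D5:**
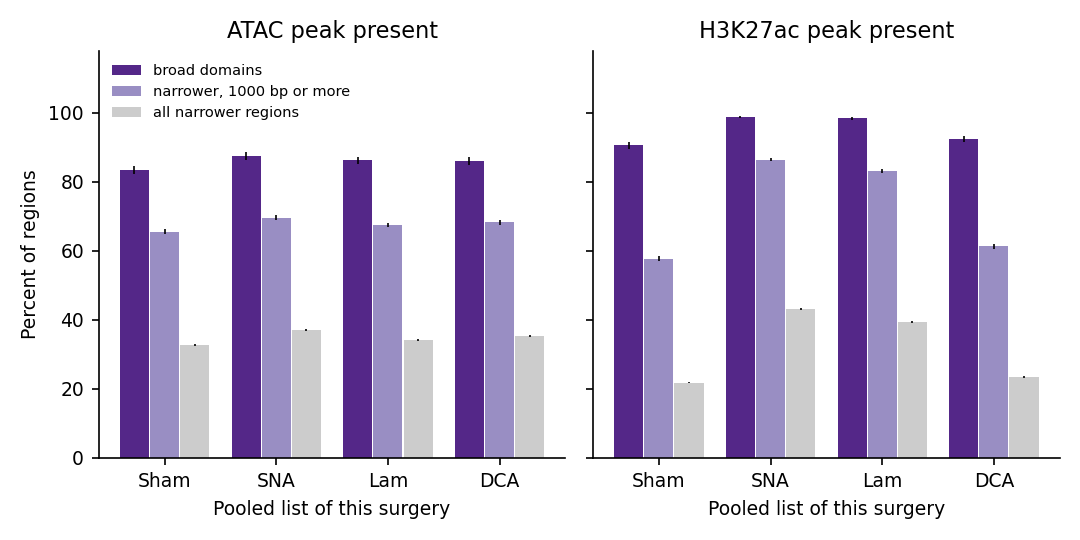
Percent of broad domains, of narrower H3K9ac regions of 1000 bp or more and of all narrower regions that overlap an ATAC peak (left) or an H3K27ac peak (right) of each surgery's pooled list. Bars start at 0 and error bars are 95% Wilson intervals (counting error only); for domains the ATAC bars lie between 83.6% and 87.5% and the H3K27ac bars between 90.6% and 98.9%.

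H3K27me3, the mark of Polycomb repression, overlapped 7.16% of the domains in Sham and 1.43% in SNA, 10.9% in Lam and 0.504% in DCA. Over narrower regions the shares were 6.40%, 3.19%, 9.40% and 1.03%. In the 500 bp window at the centre the shares were 3.42%, 0.504%, 4.30% and 0.159% for domains. For narrower regions they were 6.10%, 3.09%, 8.88% and 0.992% in that window, higher than for domains in every list. The median −log10 q of the H3K27me3 peaks narrower than 2000 bp was 0.00263 in Sham and 0 in SNA, Lam and DCA. For those of 2000 bp or more it was 0.0121 in Sham and 0 in SNA, Lam and DCA. Most H3K27me3 peaks of every list were thus weak in the authors' own statistics.

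Injury and control lists were compared for the presence of a peak at the domains. An ATAC peak was present in SNA and absent in Sham at 319 domains (8.46%), against 12.3% of all H3K9ac regions, and present in Sham and absent in SNA at 171 (4.54%), against 7.94%. For DCA and Lam the numbers were 233 (6.18%), against 10.4%, and 238 (6.31%), against 9.50%. The control surgeries differed as well: 306 domains (8.12%, against 10.8%) had an ATAC peak in Lam and not in Sham, and 206 (5.47%, against 9.15%) the reverse. The SNA gain was thus of the size seen between the 2 control surgeries, and each share was below that over all H3K9ac regions. An ATAC peak was already present in Sham at 83.6% of the domains, against 32.7% of narrower regions. Fewer domains could therefore gain a peak, so the lower shares of gain do not show that domains changed less. With only ATAC peaks of a −log10 q of at least 5, the net difference of SNA minus Sham went from 3.93 to 9.02 percentage points and that of DCA minus Lam from -0.133 to 3.71.

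An H3K27ac peak was present in SNA and absent in Sham at 326 domains (8.65%, against 25.1% of all H3K9ac regions) and the reverse held at 13 (0.345%, against 4.35%). For DCA and Lam, 28 domains (0.743%, against 4.91%) had a peak in DCA only and 256 (6.79%, against 20.4%) in Lam only. Between the controls, 320 domains (8.49%, against 21.6%) had one in Lam only and 23 (0.610%, against 4.41%) in Sham only. H3K27ac was already present in Sham at 90.6% of the domains, against 21.8% of narrower regions. Few domains could gain a peak, so here too the lower shares of gain do not show that domains changed less. The net difference was 8.30 percentage points for SNA minus Sham and -6.05 for DCA minus Lam, so the 2 injuries went opposite ways. With H3K27ac peaks of a −log10 q of at least 5 these became 17.7 and -25.6. The controls, with 320 against 23 domains, differed nearly as much as SNA and Sham, with 326 against 13.

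Among the domains with H3K27ac in SNA and not in Sham the widest were in Col5a1, a collagen gene (4647 bp), at Snx18 (3991 bp) and in Tbc1d10a (3805 bp). In list order from Sham to DCA, the Col5a1 domain had 0, 3, 2 and 2 H3K27ac peaks and widest H3K9ac peaks of 1898, 4647, 627 and 2917 bp. Snx18 had 0, 3, 3 and 0 H3K27ac peaks, and so also stood among the domains with H3K27ac in Lam and not in DCA, with Crocc2 (4250 bp) and Tln1, the talin gene (4042 bp). The domains with H3K27ac in DCA and not in Lam were narrower, at Slc7a5 (2837 bp), Atg2b and Gskip (2828 bp) and Thbd (2645 bp). The widest with H3K27ac in Sham and not in SNA was at an end of Clcf1, a cytokine gene (3006 bp), which had no H3K9ac peak in Sham or SNA, 836 bp in Lam and 3006 bp in DCA. It was followed by Ppp1cc (2689 bp) and Sema4a (2467 bp).

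Away from protein-coding starts 1769 domains remained, and 132 of these (7.46%) had the start of a long non-coding RNA within 1 kb. A stranded gene end without a start lay within 1 kb of 73 domains (1.94%).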

How the data were processed

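Peak lists of H3K9ac, H3K27ac and H3K27me3 ChIP-seq and of ATAC-seq were used, 16 lists in all, with 1 pooled list per assay and surgery. The build was mm10, per the submitters' processing notes, and the aligner and peak caller are not given in the sources used here. In the deposited lists each peak has the authors' fold enrichment over background, a −log10 p and −log10 q, and a score derived from them. The domains and gene lists were chosen with earlier results of these data known.

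Peak width was the end minus the start column. Broad H3K9ac peaks of 2000 bp or more were merged over the 4 lists at an overlap of 1 bp, and other peaks were assigned by an overlap of 1 bp. Gene starts came from RefSeq (GRCm38.p6), stranded for 17491 genes, with both ends taken for 4392 genes. Genes and domains were named by the widest of each class and by the gene lists. The scale factor and background reads per position of each list were computed from the deposited folds and p-values, assuming a Poisson background. Shares have 95% Wilson intervals, checked on simulated data, that cover counting error only. Python 3.11.15, pandas 2.3.3 and scipy 1.17.1 were used. The alternatives were other width limits, a −log10 q of at least 5, an equal number of peaks per list, other overlaps and other start rules. Some items are not reported here.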

Additional observations from a re-analysis of the deposited data

Results flagged for a closer look

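At the broad domains the presence of H3K27ac peaks moved opposite ways after the 2 injuries, which is why it is listed here. The share of domains with an H3K27ac peak was 8.30 percentage points higher in SNA than in Sham, and the difference of DCA minus Lam was -6.05 points. The pattern was not particular to the domains. Over all H3K9ac regions 25.1% had a peak in SNA and not in Sham, and 4.35% the reverse. A peak in DCA and not in Lam was present at 4.91% of them, and the reverse held at 20.4%. The difference between the injuries was not tested, since each list is 1 pool. The control lists differed too: 320 domains had a peak in Lam and not in Sham, and 23 the reverse. The base pairs of the domains covered by H3K27ac peaks were 47.5% in Sham and 72.1% in SNA, 72.0% in Lam and 47.8% in DCA. Before scaling, the background of these lists was 2.91, 3.08, 3.08 and 2.11 reads per position. SNA and Lam were highest, as in the shares of domains with a peak, while DCA was lowest with a share above that of Sham. After scaling the SNA background was 2.34. The part of depth and scaling in this pattern was not tested.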

How the results depend on the processing

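No paired analysis was possible because each deposited list pools its replicates, and for the same reason no replicate could be left out. With a width limit of 1500 bp the broad peaks were 1328 in Sham and 3322 in SNA, 747 in Lam and 7526 in DCA, merging into 8668 domains, and with 3000 bp they were 48, 323, 16 and 720, merging into 878. With a −log10 q of at least 5, Sham kept 120 broad peaks, or 5.62% of its remaining list, against 11.2% in SNA, 1.62% in Lam and 7.48% in DCA, so that the largest share passed from DCA to SNA. Taking the 163 widest peaks of every list gave 479 domains. The order of the lists by number of broad peaks held at all 3 width limits.

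The share of domains at a gene start, 53.1%, was 47.5% at 3000 bp, 56.0% with the q limit, 42.8% with equal numbers, 47.2% with a start inside the domain, 60.8% within 5 kb, 45.4% in the centre window and 43.0% with stranded genes only, a setting chosen after seeing the data. The share with an ATAC peak in all 4 lists, 72.9%, was 69.1% at 1500 bp, 76.2% at 3000 bp, 75.2% with the H3K9ac q limit, 74.5% with equal numbers, 70.9% with an overlap of 200 bp, 45.7% with ATAC peaks of a −log10 q of at least 5 and 47.0% in the centre window. The share with H3K27ac in all 4, 85.1%, was 72.9%, 96.1%, 86.5% and 95.4% under the first 4 of these, 48.9% with the q limit on H3K27ac and 57.0% in the centre window.

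The H3K27ac difference of SNA minus Sham was 15.1 percentage points at 1500 bp, 2.05 at 3000 bp, 2.71 with equal numbers, 17.7 with the q limit and 20.7 in the centre window. That of DCA minus Lam was -10.6, -2.16, -2.09, -25.6 and -17.0 under the same settings. The ATAC difference of SNA minus Sham was 9.02 with the q limit, and that of DCA minus Lam was 3.71 with it and 1.65 in the centre window, against -0.133. The cause of these shifts was not tested. The deposited folds and p-values imply that the H3K9ac pile-ups were scaled by factors from 0.315 to 0.918, which limits any reading of widths across them.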
